A study of Macaca fascicularis with 16 samples.

Results

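Heat shock proteins and the chaperones that serve steroid receptors were followed in mammary tissue of cynomolgus macaques given hormone therapy. A gene was taken as a member if its symbol named an HSP, DNAJ, FKBP, BAG or CCT protein or was STIP1, AHSA1, PTGES3 or CHORDC1, and if a probe set of the array carried that symbol alone. The members were 75 of the 14133 genes named on the array, with 147 probe sets. They comprised 4 HSP90 co-chaperones, 12 FK506-binding immunophilins, 6 subunits of the cytosolic chaperonin, 5 HSP70 and 3 HSP110 proteins, 6 BAG proteins and 5 small heat shock proteins. J-domain proteins, the partners of HSP70, supplied 4 members of class A, 9 of class B and 18 of class C. The 2 others named after heat shock proteins were HSPBP1 and HSPBAP1. HSPG2 also met the rule, but it encodes the basement membrane proteoglycan perlecan and is no chaperone.

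Steroid receptors fold and bind hormone inside a chaperone cycle. HSP70 and its J-domain partners receive the new receptor, STIP1 (Hop) bridges HSP70 and HSP90, PTGES3 (p23) closes the HSP90 clamp, and the immunophilins FKBP4 (FKBP52) and FKBP5 (FKBP51) join the mature complex. FKBP4 is known to raise and FKBP5 to lower the hormone response of several receptors, and mice without FKBP4 have uteri that respond poorly to progesterone. The cytosolic chaperonin, a double ring of CCT subunits, folds actin, tubulin and other proteins, and the small heat shock proteins are abundant in muscle.

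All 16 animals were ovariectomized, post-menopausal females, and each gave 1 array. The 4 groups of 4 were tibolone at 0.2 mg/kg, conjugated equine estrogens (CEE) at 0.042 mg/kg with medroxyprogesterone acetate (MPA) at 0.167 mg/kg, CEE alone at 0.042 mg/kg, and controls with no treatment. CEE is a mixture of estrogens, MPA is a synthetic progestin, and tibolone is a synthetic steroid whose metabolites act on estrogen, progestin and androgen receptors. Sample titles gave tibolone as OD14-HIGH. Every group lacked ovarian hormones, so the controls stand for the ovariectomized state and not for a cycling animal. P-values set a difference between groups against the spread between animals within groups, pooled over the 4 groups.

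Only probe sets with a signal above 60.2, the median over all probe sets, on 4 or more arrays were tested. This held for 117 member probe sets of 67 genes, among 28716 probe sets tested in all. Signal is the deposited linear intensity, and fold changes are differences of log2(signal + 16), which understates the change of dim probe sets. Differences are given with standard errors of a limma model of the 4 groups over 16 arrays, and a probe set passed at a p adjusted by Benjamini and Hochberg under 0.05. Where a gene had several tested probe sets, its brightest one stands for it unless another is named.

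Some properties of the arrays touch several results. Genes of skeletal muscle, which is not mammary tissue, had a list mean above 1 (centred log2 scale) on tibolone replicates 2 and 3 (2.61 and 1.76), CEE+MPA replicate 1 (1.52) and control replicate 1 (2.91). Fits without these 4 arrays keep tibolone replicates 1 and 4 and replicates 2, 3 and 4 of CEE+MPA and control. In such fits the loss of muscle and the loss of arrays cannot be told apart. The bacterial spike-in transcripts dap and thr separated 6 arrays of low signal, 2 each of CEE+MPA, CEE and control, from 10 arrays of high signal, which included all 4 tibolone arrays. The labels name no such sets, and tibolone has no array in the low set, so in its comparisons the set and the treatment cannot be fully told apart. The difference between 3′ and 5′ GAPDH probe sets (log2), a sign of RNA quality, went with the sets. It was 0.00 to 0.25 on the 6 arrays of the low set, 0.53 to 0.87 on 9 arrays of the high set, and 0.10 on tibolone replicate 2 of the high set. Its part in the values given by set, those of STIP1, the CCT genes, FKBP9 and DNAJC6 among them, was not tested. Values within a set rest on 2 arrays a group, or 4 for tibolone. Of epithelial markers, 6 of 10 luminal and 3 of 6 basal ones passed the signal filter. Of 14133 genes named on the array 10455 did, so these counts do not by themselves show epithelium in the tissue. Markers of luminal epithelium averaged -0.00 ± 0.32 on tibolone, -0.03 ± 0.04 on CEE+MPA, -0.02 ± 0.20 on CEE and 0.05 ± 0.10 on control arrays (SD, n = 4 each). Of the 6 tested luminal markers KRT19 passed, as higher in CEE+MPA over control, where the median difference over the 6 was -0.12. Basal markers averaged 0.18 ± 0.25 on tibolone, -0.51 ± 0.22 on CEE+MPA, 0.12 ± 0.34 on CEE and 0.22 ± 0.24 on control arrays, and CEE+MPA arrays (-0.76 to -0.24) did not overlap with controls (-0.01 to 0.55). Of the 3 tested basal markers TRIM29 passed, as lower in CEE+MPA over control and higher in tibolone over CEE+MPA. The part of luminal or basal cells in the members' values was not tested.

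Member probe sets passed against control with CEE+MPA, while 0 passed with CEE or with tibolone. With CEE+MPA, 4 member probe sets of FKBP4, CCT8 and CCT4 rose and 5 probe sets of DNAJC12, FKBP9, DNAJC6, DNAJB14 and FKBP10 fell. DNAJC28 also had an adjusted p under the threshold, but it entered the test only through the CEE+MPA group in which it was high. With it, 10 of 117 or 8.55% of the members passed, and without it 9 of 116 or 7.76%, while 6.33% of all probe sets passed in the same comparison, 1.95% higher and 4.38% lower. The share of members that passed was near that of the array as a whole. Groups did not overlap for 11 member probe sets that were higher and 13 that were lower (6.65% and 9.41% of all), and 40 had an unadjusted p under 0.05, or 34.2% of members against 24% of all. With a single array left out, the number that passed was 4 without control replicate 1, 3 without control replicate 2, 5 without CEE+MPA replicate 2, 3 without CEE+MPA replicate 3 and 8 to 13 in the other omissions. The share of all probe sets that passed in these omissions is not given, so the numbers do not set members against the array. With each array centred on its median, the split of member calls was 7 higher and 4 lower, and that of all calls was 971 higher and 959 lower, against 561 and 1258 as scaled by the authors. The median difference over the 117 member probe sets was 0.05, and over all tested probe sets it was -0.01 on the log2 scale.

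**Figure D1:**
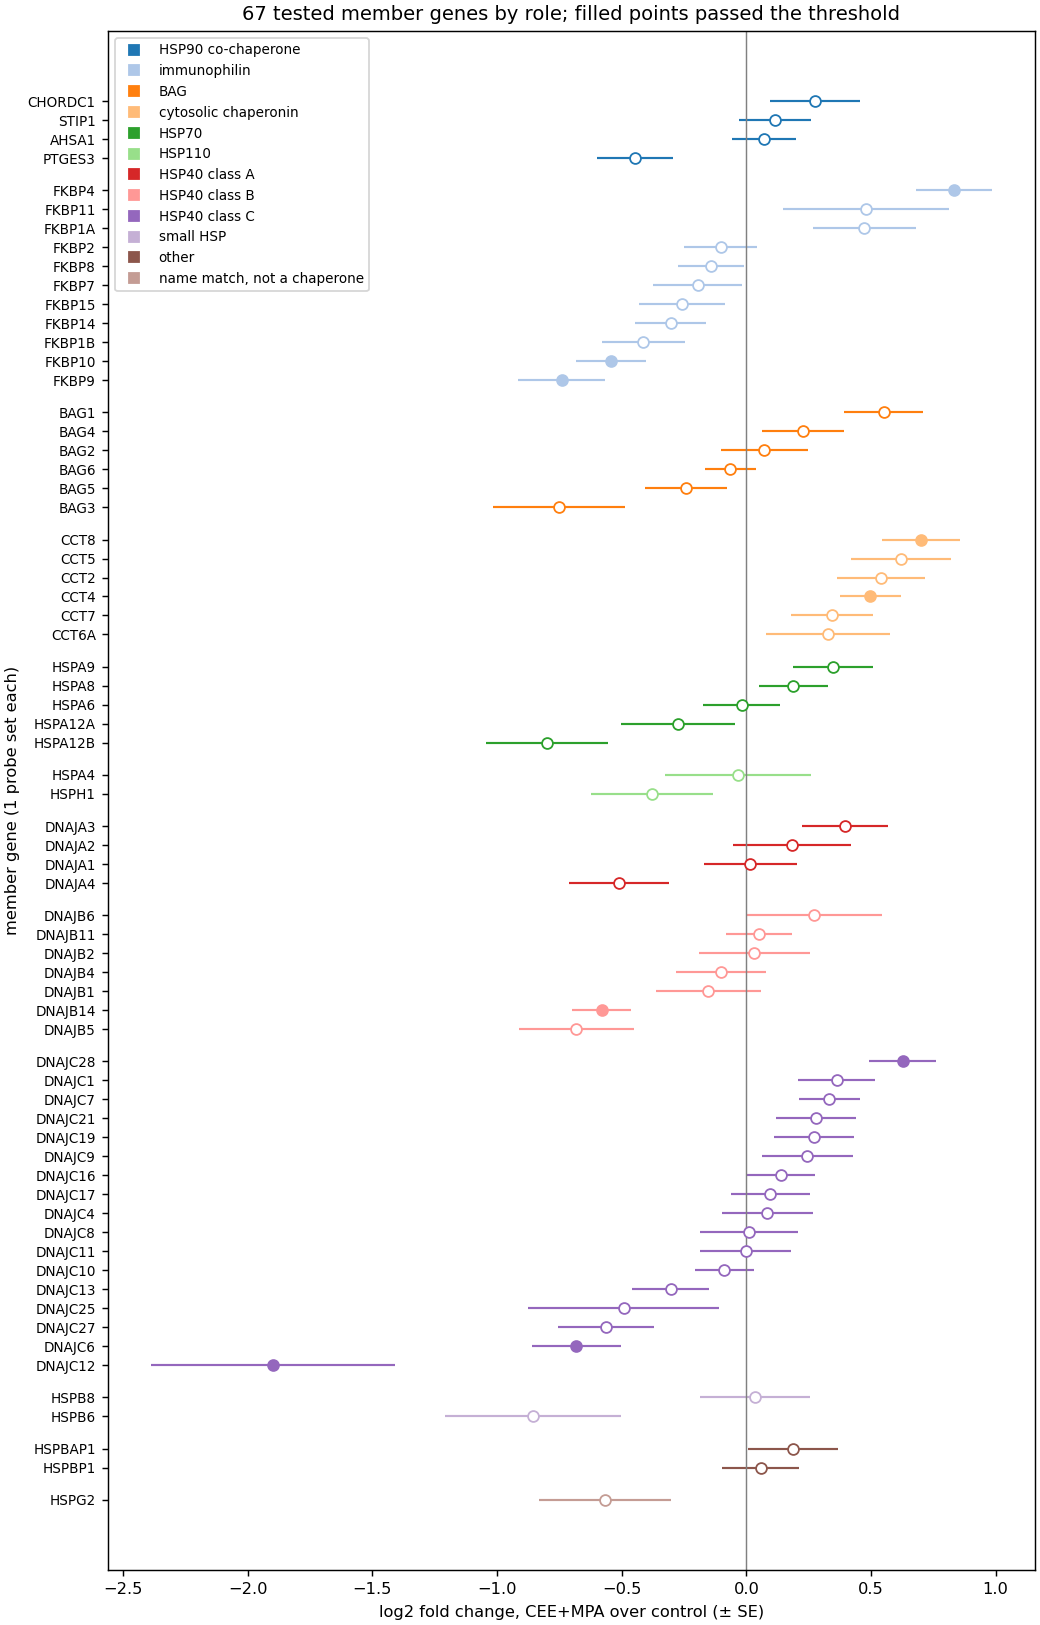
Log2 fold changes of the 67 tested member genes in CEE+MPA over control (horizontal axis, point ± SE, 1 probe set per gene), grouped by role in colour. Filled points passed the threshold, with FKBP4, CCT8, CCT4 and DNAJC28 (tested only through its CEE+MPA signal) right of 0 and DNAJC12, FKBP9, DNAJC6, DNAJB14 and FKBP10 left of it, and all 6 CCT genes lie right of 0.

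FKBP4, the immunophilin of the mature receptor complex, was the member with the smallest p. Its main probe set had signals of 1358, 1339, 1032 and 1402 with tibolone and of 2181, 1963, 1958 and 2056 with CEE+MPA. The CEE arrays had 1807, 1726, 1633 and 1285 and the controls 971, 1006, 1431 and 1189. Every CEE+MPA array lay above every array of the other 3 groups. CEE arrays fell between, with 1 of them inside the control range, and tibolone and control arrays overlapped.

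FKBP4 rose by 0.83 ± 0.15 on the log2 scale with CEE+MPA over control (1.78-fold, limma, adjusted p = 0.00854). It was lower with tibolone than with CEE+MPA by -0.67 ± 0.15 (adjusted p = 0.0243). The CEE+MPA arrays enter both comparisons, so these are not independent. The difference of CEE from control was 0.49 with a 95% interval of 0.16 to 0.81 (adjusted p = 0.234), and that of CEE+MPA from CEE was 0.35 with an interval of 0.02 to 0.67 (adjusted p = 0.616). Neither passed, and the rise with CEE+MPA cannot be assigned to the estrogen or to the progestin from these values.

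A second FKBP4 probe set behaved alike. Its signals were 471, 438, 423 and 450.2 with tibolone, 752, 616, 647 and 773 with CEE+MPA, 645, 566, 457 and 509.5 with CEE, and 304, 334, 429 and 395 in controls. Here all CEE arrays also exceeded all controls, by 0.56 on the log2 scale, a difference with an adjusted p of 0.166, or of 0.0478 when the spike-in set entered the limma model as a block. It rose by 0.91 ± 0.14 with CEE+MPA over control (adjusted p = 0.0042) and was lower by -0.62 ± 0.14 with tibolone than with CEE+MPA (adjusted p = 0.0238). Another, dim probe set, with group means between 66.1 and 99.3, gave 0.46 ± 0.23 in CEE+MPA over control and did not pass (adjusted p = 0.25).

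The rise of FKBP4 in CEE+MPA over control passed without any one of the 8 arrays compared, with differences of 0.76 to 0.94 and adjusted p of 0.0116 to 0.038. Within the low and the high spike-in set the differences of its main probe set were 0.69 (adjusted p = 0.325) and 0.98 (adjusted p = 0.021). Against CEE+MPA, the tibolone call was lost without tibolone replicate 2 or 3 or without CEE+MPA replicate 1 or 3, with differences of -0.72 to -0.57 and adjusted p up to 0.0761 over the 8 omissions.

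**Figure D2:**
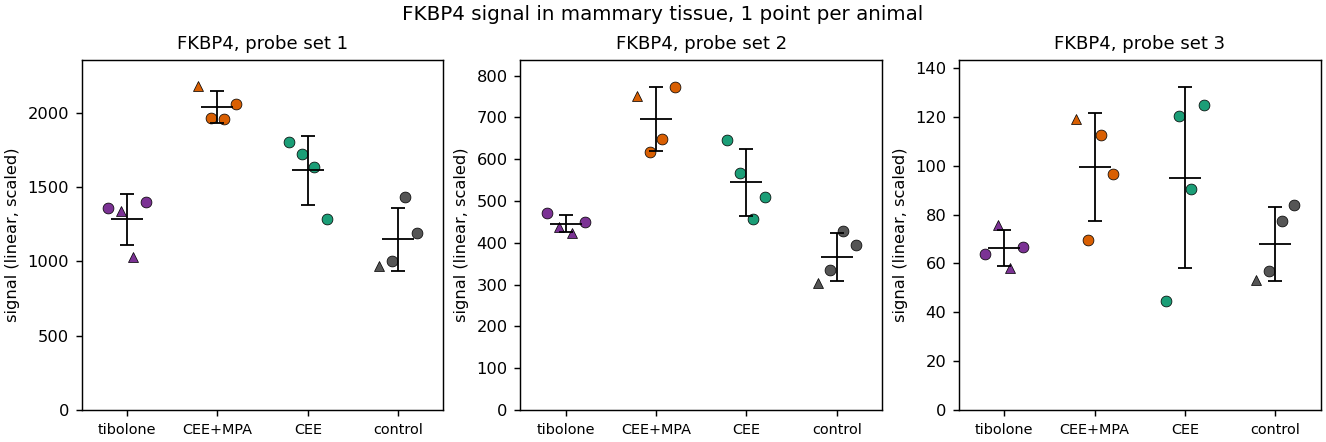
Signal (linear, scaled by the authors) of the 3 tested FKBP4 probe sets, 1 point per animal, with group means ± SD as bars, for tibolone, CEE+MPA, CEE and control. Triangles mark the 4 arrays with high skeletal muscle signal. The CEE+MPA points of the first probe set (1958 to 2181) all lie above the points of the other groups.

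None of the 4 HSP90 co-chaperones passed in any comparison. STIP1 differed by 0.11 (95% interval -0.19 to 0.42) in CEE+MPA over control, AHSA1, the activator of the HSP90 ATPase, by 0.07 (-0.20 to 0.35), and CHORDC1, another HSP90 co-chaperone, by 0.27 (-0.11 to 0.66). PTGES3 was lower by -0.45 ± 0.15 with signals of 77.0, 58.7, 78.4 and 71.6 on CEE+MPA arrays and of 75.8, 121, 99.2 and 121 on control arrays (adjusted p = 0.0843). Its groups overlapped, and the probe set is dim. STIP1 and CHORDC1 were split inside the CEE+MPA group: STIP1 had 780.2 and 744 on replicates 1 and 4, which belong to the low spike-in set, and 1159 and 1099.9 on replicates 2 and 3 of the high set. Within the low set the STIP1 difference was -0.16 and within the high set 0.39, neither past the threshold.

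FKBP5, the competitor of FKBP4 in the receptor complex and a known glucocorticoid and progestin target, was close to the floor of the array. Its 1 probe set had 62.3, 113, 59.0 and 24.0 with tibolone, 35.6, 43.1, 38.0 and 37.9 with CEE+MPA, 34.9, 42.4, 33.3 and 33.7 with CEE, and 42.2, 66.5, 7.80 and 52.8 in controls. Only 3 arrays passed the signal filter, so it was not tested, and no group stood apart. A response of FKBP5 was not detectable at these signals.

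The HSP90 genes, whose symbols the rule did not take, were measured beside the members. HSP90AB1, the constitutive cytosolic form, had a brightest probe set at 7699, 6838, 7649 and 8865 with tibolone, 8963, 8985, 8711 and 7354 with CEE+MPA, 7599.6, 8080.3, 7547 and 7909 with CEE, and 6388, 6841, 8704 and 6638 in controls. All groups overlapped. Its difference in CEE+MPA over control was 0.26 (95% interval -0.02 to 0.53), that of the inducible HSP90AA1 0.10 (-0.36 to 0.55) and that of HSP90B1 of the endoplasmic reticulum -0.02 (-0.32 to 0.28). Of 20 genes listed for HSP90 and client maturation, 17 were tested and 0 passed in any of the 6 comparisons. Of 6 steroid receptor genes, 3 were tested and 0 passed. PGR, the progesterone receptor gene, was dim and entered the test through 3 CEE arrays and 1 tibolone array, so its signals are a description. They were 5.80 to 179 with tibolone, 8.75 to 27.5 with CEE+MPA, 36.6 to 152 with CEE and 13.7 to 21.3 in controls.

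CCT8, which encodes the theta subunit of the chaperonin, had the largest rise among chaperonin genes. Its signals were 2376, 1929, 2127 and 2641 with tibolone, 4028, 4047, 4062 and 2795 with CEE+MPA, 2878, 2489, 2823 and 3149 with CEE, and 2113, 1929, 2486 and 2597 in controls. CEE+MPA replicates 1, 2 and 3 were close together and far above all other arrays, and replicate 4 was lower, though still above every tibolone and control array. CCT8 rose by 0.70 ± 0.16 in CEE+MPA over control (limma, adjusted p = 0.0195) and was lower by -0.71 ± 0.16 with tibolone than with CEE+MPA (adjusted p = 0.0223).

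CCT4, the delta subunit, followed in CEE+MPA over control at 0.50 ± 0.12 (adjusted p = 0.0293). It had 4816, 4933, 5564 and 3976 with CEE+MPA and 3162, 3364, 3771 and 3293 in controls, and these groups did not overlap. With tibolone it had 3802, 3474, 3732 and 4241, and with CEE 3949, 4017, 3878 and 4194. Both of these groups overlapped with CEE+MPA through replicate 4, and the difference of tibolone from CEE+MPA was -0.33 ± 0.12 (adjusted p = 0.109).

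All 6 measured CCT genes had a higher mean with CEE+MPA than in controls, with differences of 0.33 (CCT6A) to 0.70 (CCT8). CCT5 gave 0.62 ± 0.20 (adjusted p = 0.0726) and CCT2 0.54 ± 0.18 (adjusted p = 0.0762), and CCT7 and CCT6A did not pass either. Without CEE+MPA replicate 4, CCT5 (0.82, adjusted p = 0.0186) and CCT2 (0.72, adjusted p = 0.0187) passed. Of the 16 CCT probe sets 15 were positive, with a median of 0.38, against 48.4% of all tested probe sets, but only 2 passed. A second CCT6A probe set went the other way, at -0.42 ± 0.31 (adjusted p = 0.456), and the 10 probe sets of CCT2 ranged from 0.04 to 0.75. TCP1, the alpha subunit, is no member by its symbol, and its 3 probe sets gave 0.10 to 0.35 without passing.

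The mean over the 6 CCT genes showed which arrays carried this. On the centred log2 scale it was 0.03, -0.43, -0.24 and 0.11 with tibolone, 0.32, 0.40, 0.52 and -0.10 with CEE+MPA, 0.10, 0.04, 0.04 and 0.09 with CEE, and -0.31, -0.35, -0.11 and -0.10 in controls. CEE+MPA replicate 4 lay with the controls, and the lowest values belonged to control replicates 1 and 2 and to tibolone replicates 2 and 3. Of these 4 arrays 3 had high skeletal muscle signal, as had CEE+MPA replicate 1 with its high value, and the part of muscle in the CCT values was not tested. The CEE arrays kept within 0.04 to 0.10.

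Single arrays decided how many CCT probe sets passed in CEE+MPA over control. Without CEE+MPA replicate 4 the number was 5, and without control replicate 1 or 2 or without CEE+MPA replicate 2 or 3 it was 0. The call of CCT8 was lost without any one of those 4 arrays (adjusted p up to 0.0771), and that of CCT4 also without CEE+MPA replicate 1 (adjusted p up to 0.0913). Without the 4 arrays of high skeletal muscle signal CCT8 stood at 0.62 (adjusted p = 0.0882) and CCT4 at 0.46 (adjusted p = 0.118). Within the low and the high spike-in set the median over CCT probe sets was 0.23 and 0.61. CCT8 had an adjusted p of 0.559 in the low and 0.0244 in the high set, and CCT4 stood at 0.31 (adjusted p = 0.572) and 0.68 (adjusted p = 0.0387).

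**Figure D3:**
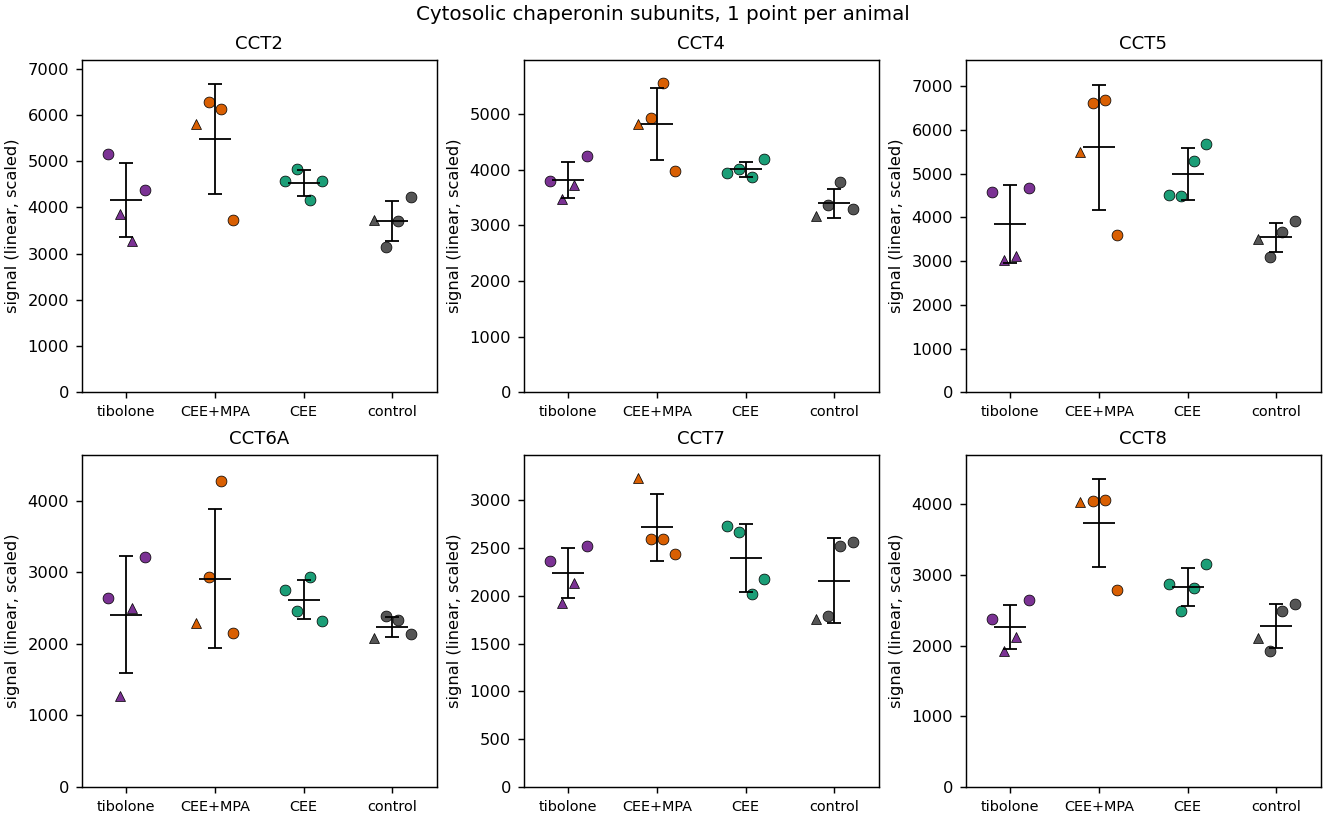
Signal (linear, scaled by the authors) of the 6 measured cytosolic chaperonin genes, 1 point per animal, with group means ± SD as bars, for tibolone, CEE+MPA, CEE and control. Triangles mark arrays with high skeletal muscle signal. CEE+MPA replicate 4, the rightmost point of its group, is the lowest CEE+MPA point in each of the 6 panels, at 2795 for CCT8.

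HSP70 and HSP110 genes gave no call in any of the 6 comparisons of the model described above. HSPA8, the constitutive cytosolic HSP70, differed by 0.19 (95% interval -0.10 to 0.48) in CEE+MPA over control on its brightest probe set. Another HSPA8 probe set had 0.41 ± 0.14 with groups that did not overlap (adjusted p = 0.0765). HSPA9, the mitochondrial HSP70, had 0.35 ± 0.16 (adjusted p = 0.2). HSPA12B, an HSP70 relative best known from endothelium, had 537, 563, 548 and 425 with tibolone, 217, 272, 436 and 334 with CEE+MPA, 238, 297, 459 and 348 with CEE, and 631, 774, 389 and 453 in controls. CEE+MPA and CEE arrays were mostly low, and both overlapped with the controls (CEE+MPA over control -0.80 ± 0.24, adjusted p = 0.0602). This difference passed in some other settings, with the spike-in set by dap and thr as a block among them (adjusted p = 0.0203).

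Endothelial markers were set beside HSPA12B. The mean over all 6 endothelial markers, each of which was tested, ranged from -0.15 to 0.49 with tibolone, -0.39 to -0.23 with CEE+MPA, -0.28 to 0.01 with CEE and -0.01 to 0.52 in controls. None of the 6 passed in CEE+MPA over control, and CLDN5 passed as higher with tibolone than with CEE+MPA. Their part in the HSPA12B values was not tested. In bulk tissue, fewer cells of a type and less RNA per cell cannot be told apart. HSPH1, the cytosolic HSP110, had a mean of 1119.9 ± 319 with tibolone, 754 ± 241 with CEE+MPA, 701 ± 109.7 with CEE and 961 ± 201 in controls (SD, n = 4 each) and passed in no comparison. A dimmer HSPH1 probe set was higher by 0.96 ± 0.28 with tibolone than with CEE+MPA without passing (adjusted p = 0.0519), and passed at an offset of 64 (adjusted p = 0.037) and without CEE+MPA replicate 2 or 4 or tibolone replicate 4.

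Among J-domain proteins, DNAJC12 had the widest range of all members. It is a co-chaperone of aromatic amino acid hydroxylases. Its signals were 209, 342, 319 and 61.3 with tibolone, 71.1, 71.4, 73.8 and 169 with CEE+MPA, 229, 399, 92.5 and 81.7 with CEE, and 266, 390.2, 473 and 421 in controls. All controls were high, 3 of the 4 CEE+MPA arrays lay near the filter, and the CEE and tibolone groups held both high and low animals.

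DNAJC12 fell by 1.90 ± 0.49 on the log2 scale in CEE+MPA over control (3.73-fold, limma, adjusted p = 0.0342). The call was lost without any one of the 4 controls or of CEE+MPA replicates 1, 2 and 3, with differences of -2.17 to -1.80 and adjusted p up to 0.097. Within the low and the high spike-in set the difference was -1.87 (adjusted p = 0.367) and -1.93 (adjusted p = 0.0763). The difference of tibolone from CEE+MPA was 1.01 with an interval of -0.03 to 2.05 (adjusted p = 0.211), and it passed without tibolone replicate 4 (adjusted p = 0.037).

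DNAJB14, a J-protein of the endoplasmic reticulum membrane, was more even. It had 613, 552, 489 and 494 with tibolone, 419, 492, 426 and 427 with CEE+MPA, 518, 492, 438 and 432 with CEE, and 679, 590.3, 688 and 714 in controls. Every CEE+MPA and every CEE array lay below every control, and 1 tibolone array lay inside the control range. It fell by 0.58 ± 0.12 in CEE+MPA over control (adjusted p = 0.0143), and the call held without any one of the 8 arrays (adjusted p up to 0.0469). The difference of CEE from control was -0.49 ± 0.12 (adjusted p = 0.143).

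The DNAJB14 probe sets did not all move alike. A second one had -0.50 ± 0.15 without passing (adjusted p = 0.0637), and another, dim one 0.09 ± 0.19 (adjusted p = 0.825). Without the 4 arrays of high skeletal muscle signal the main probe set had -0.55 (adjusted p = 0.0728). Within the low and high spike-in sets its differences were -0.71 (adjusted p = 0.259) and -0.45 (adjusted p = 0.111).

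DNAJC6, the neuronal form of auxilin that strips clathrin from vesicles, was dim. Its signals averaged 62.2 ± 12.2 with tibolone (SD, n = 4) and were 47.2, 33.7, 50.2 and 63.9 with CEE+MPA, 55.6, 70.6, 62.9 and 90.2 with CEE, and 101, 101, 77.8 and 70.1 in controls. CEE+MPA arrays lay below all controls, by a small margin at the nearest pair, and the other groups overlapped with both. It fell by 0.68 ± 0.18 in CEE+MPA over control (adjusted p = 0.0351). Of 8 omissions of a single array, the call held in 2, those of replicate 4 of either group, and was lost in the other 6 (adjusted p up to 0.118). Within the low and high spike-in sets it had -0.34 (adjusted p = 0.665) and -1.03 (adjusted p = 0.0326).

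DNAJC28, a J-domain protein, was near the floor. It had 46.9, 39.2, 35.5 and 46.6 with tibolone, 68.7, 63.6, 71.8 and 64.3 with CEE+MPA, 68.0, 58.5, 43.8 and 48.0 with CEE, and 35.5, 36.7, 32.4 and 47.6 in controls. Beside the 4 CEE+MPA arrays only 1 CEE array exceeded the filter, so this probe set entered the test through the group in which it was high and had to differ. Its differences, 0.63 ± 0.13 in CEE+MPA over control and -0.52 ± 0.13 in tibolone over CEE+MPA, are therefore given as a description, with no test.

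DNAJC7, a tetratricopeptide protein that binds both HSP70 and HSP90 and takes part in receptor folding, passed on 1 of 2 probe sets. This probe set had 710.4, 809, 805 and 777 with tibolone, 1298, 1123, 1059 and 1034 with CEE+MPA, 859.7, 929, 805 and 663 with CEE, and 756, 783, 913 and 1029 in controls. All CEE+MPA arrays lay above all others, though control replicate 4 was only just lower. It was lower with tibolone than with CEE+MPA by -0.53 ± 0.14 (adjusted p = 0.0378), and the brighter probe set by -0.17 ± 0.12 (adjusted p = 0.415). In CEE+MPA over control both were positive, 0.37 ± 0.14 and 0.33 ± 0.12, and neither passed (adjusted p = 0.111 and 0.114). The tibolone call was lost without any one of the 4 CEE+MPA arrays or of tibolone replicates 1, 2 and 3 (adjusted p up to 0.0908).

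DNAJA1 and DNAJB1, the best known cytosolic partners of HSP70, showed no call. In CEE+MPA over control they differed by 0.02 (95% interval -0.38 to 0.41) and -0.15 (-0.60 to 0.29). Other J-proteins near the threshold in that comparison were DNAJC27 at -0.56 ± 0.19 (adjusted p = 0.0884) and DNAJB5 at -0.68 ± 0.23 (adjusted p = 0.0843). They were chosen for mention after their values were seen. DNAJC25, a J-protein of the endoplasmic reticulum, had one of the 5 widest ranges. It had 2545, 3181, 3287 and 997 with tibolone, 2005, 2270.0, 1760.3 and 1825 with CEE+MPA, 1816, 2156, 4482 and 2208 with CEE, and 3738, 4573, 1758 and 1921 in controls. High and low arrays occurred in every group but CEE+MPA, and the gene passed in no comparison.

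BAG proteins release the client from HSP70, and BAG3 also delivers clients with HSPB8 to autophagy in muscle. BAG3 had 692, 884, 565 and 351 with tibolone, 201, 319, 333 and 254 with CEE+MPA, 479.9, 319, 349.8 and 352 with CEE, and 512, 694, 392 and 343 in controls. The CEE+MPA arrays lay below every tibolone and every control array. BAG3 was higher with tibolone than with CEE+MPA by 1.08 ± 0.27 (2.11-fold, limma, adjusted p = 0.0316), and CEE+MPA differed from control by -0.75 ± 0.27 (adjusted p = 0.0975). The tibolone call was lost without any one of tibolone replicates 1, 2 and 3 or CEE+MPA replicates 1, 3 and 4 (adjusted p up to 0.102). Without the 4 arrays of high skeletal muscle signal it was 0.69 (adjusted p = 0.513), with only tibolone replicates 1 and 4 left in that group.

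BAG1, known to bind steroid receptors as well as HSP70, had the opposite signs without passing. It had 581, 655, 496 and 771 with tibolone, 750.0, 994, 872 and 1039 with CEE+MPA, 761, 639, 766 and 662 with CEE, and 706, 549, 700.1 and 523 in controls. All CEE+MPA arrays lay above all controls, and the tibolone group overlapped with both. The differences were 0.55 ± 0.16 in CEE+MPA over control (adjusted p = 0.0515) and -0.54 ± 0.16 in tibolone over CEE+MPA (adjusted p = 0.0546). Both passed in some of the alternative settings, among them 1 probe set per gene (adjusted p = 0.0372 and 0.0419), median centring (0.037 and 0.0358) and an offset of 64 (0.0405 and 0.0448). The first also passed without CEE+MPA replicate 1 (adjusted p = 0.0448) and the second without tibolone replicate 4 (adjusted p = 0.0212). The other 4 BAG genes did not pass in any comparison.

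FKBP9 and FKBP10 are immunophilins of the endoplasmic reticulum, and FKBP10 (FKBP65) is needed for collagen maturation. FKBP9 had 2247, 2972, 2972 and 2032 with tibolone, 1659, 1830.1, 1307 and 1718 with CEE+MPA, 2143, 1951, 2449 and 1872 with CEE, and 2917, 3394, 2515 and 2166 in controls. FKBP10 had 338, 358, 334 and 307 with tibolone, 254, 225, 209 and 167 with CEE+MPA, 213, 256, 283 and 309 with CEE, and 294, 334, 329 and 307 in controls. For both genes every CEE+MPA array lay below every tibolone and control array. For FKBP9 the CEE+MPA arrays also lay below all CEE arrays, a difference of -0.37 ± 0.17 that did not pass (adjusted p = 0.646).

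In CEE+MPA over control FKBP9 fell by 0.74 ± 0.17 (limma, adjusted p = 0.0242) and FKBP10 fell by 0.54 ± 0.14 (adjusted p = 0.0342). In tibolone over CEE+MPA FKBP9 was higher by 0.64 ± 0.17 (adjusted p = 0.0428) and FKBP10 by 0.62 ± 0.14 (adjusted p = 0.0238), with the same CEE+MPA arrays in both comparisons. Against control, the FKBP9 call was lost if control replicate 1 or 2 or CEE+MPA replicate 3 was left out (adjusted p up to 0.0919), and the FKBP10 call without any one of 6 of the 8 arrays (adjusted p up to 0.107), control replicate 4 and CEE+MPA replicate 1 being the exceptions. Against CEE+MPA, the tibolone call of FKBP9 was lost without any array but tibolone replicate 4 (adjusted p up to 0.128), and that of FKBP10 without tibolone replicate 2 or 3 or CEE+MPA replicate 3 or 4 (adjusted p up to 0.0779). Within the low and high spike-in sets, CEE+MPA over control was -0.46 and -1.02 for FKBP9 and -0.59 and -0.50 for FKBP10, of which only the FKBP9 value in the high set passed (adjusted p = 0.0351).

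Some fibroblast markers fell with these 2 genes. Of 8 fibroblast markers 7 were tested, and DPT, FBLN1 and LUM passed as lower in CEE+MPA over control. The list mean ranged from 0.01 to 0.28 with tibolone, -0.73 to -0.08 with CEE+MPA, -0.35 to 0.11 with CEE and 0.27 to 0.69 in controls. Its part in the values of FKBP9 and FKBP10 was not tested. The other immunophilins of the endoplasmic reticulum did not pass. FKBP14 had -0.30 ± 0.14 (adjusted p = 0.209), FKBP7 -0.19 ± 0.18 and FKBP2 -0.10 ± 0.15 in CEE+MPA over control. FKBP11, an immunophilin of secretory cells, had the opposite sign at 0.48 ± 0.33 (adjusted p = 0.416), with tibolone arrays at 2967, 1081, 831 and 2649.8 and CEE+MPA arrays at 3214, 3002, 2835 and 1917. A second FKBP11 probe set had 0.61 (limma, adjusted p = 0.124), and -0.73 in tibolone over CEE+MPA (adjusted p = 0.0734). Within the high spike-in set both differences passed (0.95 and -0.96, adjusted p = 0.0472 and 0.0425). The tibolone difference also passed without tibolone replicate 4 (adjusted p = 0.0412).

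**Figure D4:**
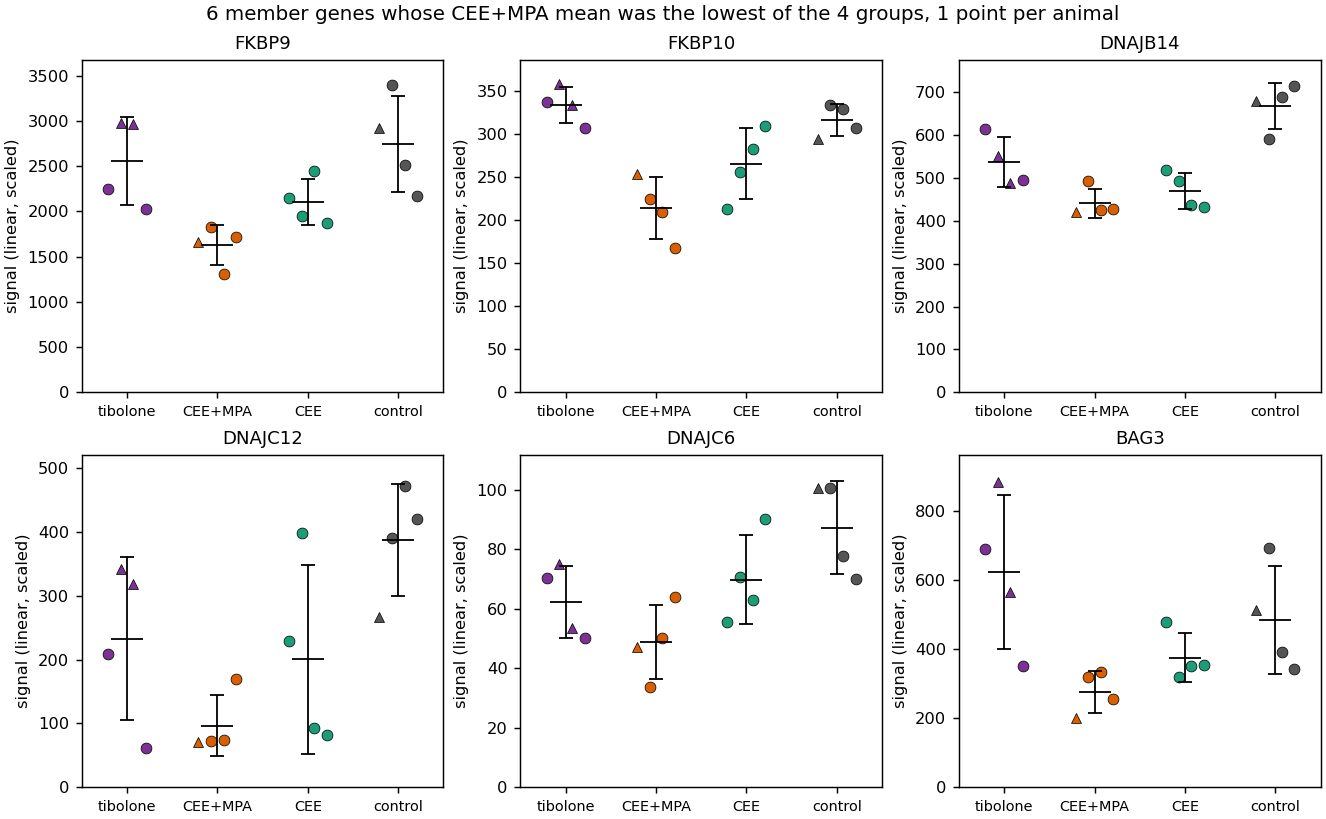
Signal (linear, scaled by the authors) of 6 member genes whose CEE+MPA mean was the lowest of the 4 groups, 1 point per animal, with group means ± SD as bars, for tibolone, CEE+MPA, CEE and control. Triangles mark arrays with high skeletal muscle signal. FKBP9, FKBP10 and BAG3 points do not overlap between tibolone and CEE+MPA, while DNAJC12 ranges from 61.3 to 342 within the tibolone group.

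Neither tested small heat shock protein gene passed in the model described above, and both passed in some other settings. HSPB6 (HSP20), a protein of smooth, cardiac and skeletal muscle, had 617, 893, 1002 and 285 with tibolone, 353, 189, 316 and 244 with CEE+MPA, 398, 320.0, 450.2 and 258 with CEE, and 769, 638, 317 and 393 in controls. The 3 highest arrays were tibolone replicates 2 and 3 and control replicate 1, which also had high skeletal muscle signal, and all groups overlapped. Its differences were -0.86 ± 0.35 in CEE+MPA over control (adjusted p = 0.152) and 1.19 ± 0.35 in tibolone over CEE+MPA (adjusted p = 0.0559). The second difference passed with 1 probe set per gene (adjusted p = 0.047) and with a filter at the 75th percentile (adjusted p = 0.0408). Without tibolone replicate 4 it was 1.56 (adjusted p = 0.00738), and that of the other HSPB6 probe set was 1.67 (adjusted p = 0.00785).

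HSPB8 gave unlike answers on its 2 probe sets. The brighter one by mean log2 signal had 466, 558, 483 and 632 with tibolone, 455, 474, 617 and 577 with CEE+MPA, 597, 667, 452 and 271 with CEE, and 455, 467, 586 and 561 in controls, a difference of 0.03 ± 0.22 in CEE+MPA over control. The other had 461, 732, 918 and 169.6 with tibolone, 412, 135, 188 and 231 with CEE+MPA, 509, 543, 612 and 242 with CEE, and 829, 962, 391 and 415 in controls, a difference of -1.37 ± 0.47 (adjusted p = 0.0883). The second was highest on control replicates 1 and 2 and tibolone replicates 2 and 3, and neither passed. The second passed within the high spike-in set in CEE+MPA over control (-2.37, adjusted p = 0.0478) and, without tibolone replicate 4, in tibolone over CEE+MPA (1.54, adjusted p = 0.027).

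Several marker lists differed between the arrays along with these genes. Of 11 smooth muscle markers 9 were tested, and 8 of them passed as lower in CEE+MPA over control and 7 as higher in tibolone over CEE+MPA. The list mean ranged from -0.15 to 0.66 with tibolone, -1.21 to -0.44 with CEE+MPA, -0.09 to 0.13 with CEE and 0.14 to 0.61 in controls. The skeletal muscle list, with 12 of 20 markers tested and 0 past the threshold in these comparisons, ranged from -0.93 to 2.61 with tibolone, from -1.05 to 1.52 with CEE+MPA and from -0.94 to 2.91 in controls, and averaged -1.13 ± 0.14 with CEE (SD, n = 4). Of 10 adipocyte markers 8 were tested, and CFD passed, as lower in CEE+MPA over control and higher in tibolone over CEE+MPA. The adipocyte mean ranged from -1.09 to 1.23 with tibolone, -1.27 to 0.45 with CEE+MPA, -1.20 to 0.23 with CEE and -0.55 to 0.96 in controls, with its highest value on tibolone replicate 3, where HSPB6 was also highest. The part of these lists in the values of HSPB6, HSPB8 and BAG3 was not tested.

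**Figure D5:**
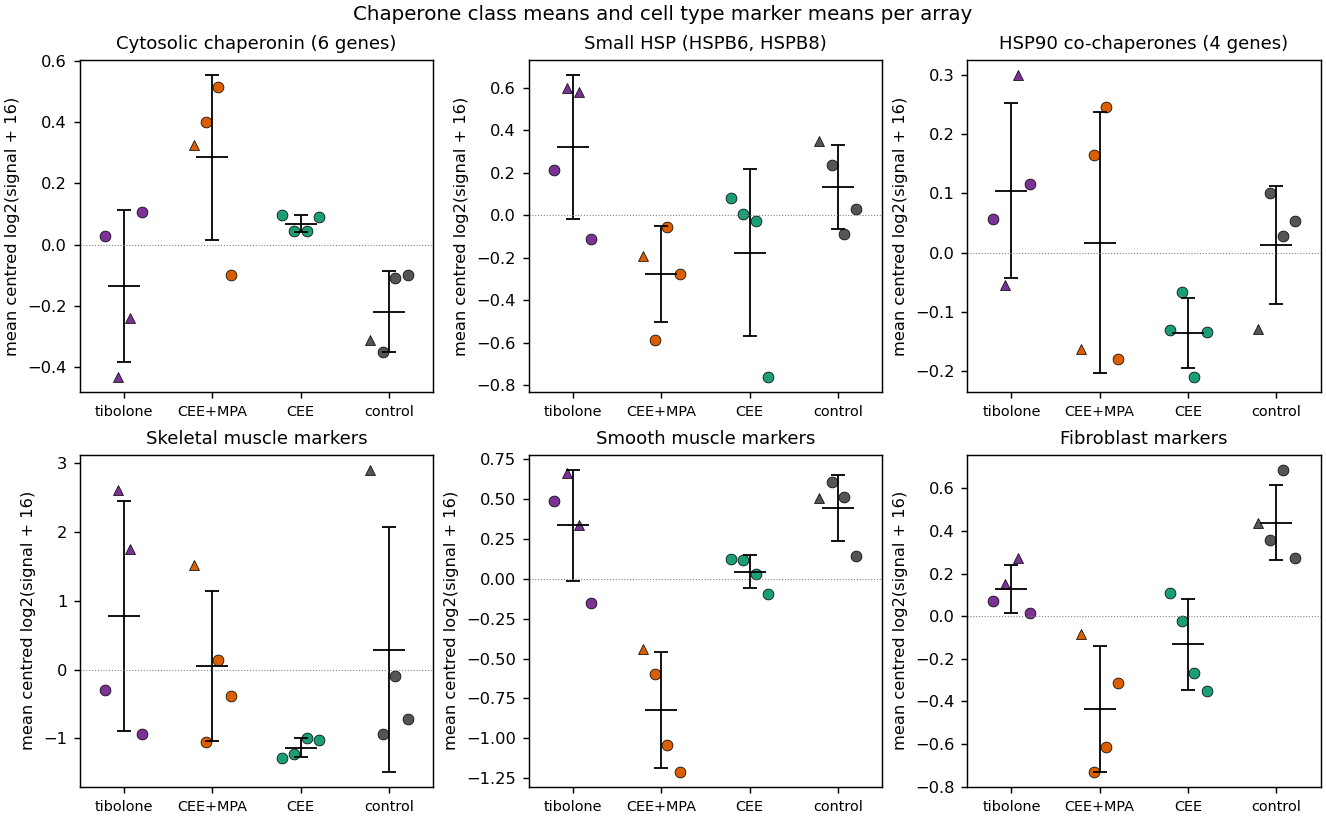
Mean over the genes of a class or marker list on each array (vertical axis, centred log2(signal + 16)), 1 point per animal, with group means ± SD as bars, for tibolone, CEE+MPA, CEE and control. Triangles mark arrays with high skeletal muscle signal. The chaperonin mean is highest on 3 CEE+MPA arrays (0.32 to 0.52), and the smooth muscle and fibroblast means are lowest with CEE+MPA.

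Perlecan (HSPG2), the member by name alone, had 714, 1023, 666 and 601 with tibolone, 289.9, 525, 527 and 274 with CEE+MPA, 484, 484, 615 and 576 with CEE, and 782, 799.8, 432 and 414 in controls. Every tibolone array exceeded every CEE+MPA array. The difference of 0.90 ± 0.26 missed the threshold (limma, adjusted p = 0.0531), and that of CEE+MPA from control was -0.57 ± 0.26 (adjusted p = 0.203). The tibolone difference passed in other settings, among them 1 probe set per gene (adjusted p = 0.0438) and without tibolone replicate 4 (adjusted p = 0.0372).

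In tibolone over CEE+MPA, 3 member probe sets (BAG3, FKBP9 and FKBP10) were higher and 4 (CCT8, 2 of FKBP4, and DNAJC7) were lower. These were 7 of 116 or 6.03%, and 8 of 117 or 6.84% with DNAJC28, which entered the test only through its CEE+MPA signal, while 6.34% of all probe sets passed, 3.78% higher and 2.56% lower. With median centring the split of member calls was 2 higher and 6 lower, and that of all calls 674 higher and 1094 lower, against 1086 and 734 as scaled by the authors. Groups did not overlap for 8 higher and 9 lower member probe sets (7.56% and 5.57% of all), and 34 had an unadjusted p under 0.05 (29.1% of members, 25.1% of all). Omitting any single array moved the count, which was 0 without tibolone replicate 2 or 3 or CEE+MPA replicate 3, 19 without tibolone replicate 4 and 1 to 5 in the other omissions. These counts too are given without the share of all probe sets and do not set members against the array. None of the 8, DNAJC28 included, passed in a model of these 2 groups alone or without the arrays of high skeletal muscle signal. Both of these fits use fewer arrays.

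The other comparisons gave no member call by limma. In CEE over control 0 of 117 passed, where 0.0731% of all probe sets did, 0.0418% higher and 0.0313% lower. An unadjusted p under 0.05 was found for 15 members (12.8%, and 12.4% of all), and groups did not overlap for 4 higher and 3 lower members (4.21% and 4.74% of all). The smallest p among the genes' brightest probe sets were those of FKBP4, DNAJC28 and CCT5 (0.49 ± 0.20, adjusted p = 0.342) on the higher side. On the lower side they were those of DNAJB14, PTGES3 (-0.48 ± 0.15, adjusted p = 0.24) and HSPA12B (-0.71 ± 0.24, adjusted p = 0.272). All 4 CEE arrays of CCT5 (4517, 4478, 5288 and 5675) lay above the controls (3496, 3101, 3655 and 3909).

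In tibolone over control 0 passed, where 0.0244% of all probe sets did, all of them higher. An unadjusted p under 0.05 was found for 10 members (8.55%, and 5.4% of all), and groups did not overlap for 4 higher and 0 lower members (1.9% and 1.53% of all). Of the 10, 3 were chaperonin probe sets, none of them the brightest of its gene. Among the genes' brightest probe sets, DNAJA1 (0.42 ± 0.19), HSPBP1 (0.33 ± 0.15) and FKBP1A (0.37 ± 0.21) had the smallest p on the higher side, each with an adjusted p of 0.913. DNAJB14 (-0.31 ± 0.12, adjusted p = 0.901), DNAJC6 (-0.40 ± 0.18) and DNAJC12 (-0.89 ± 0.49) had them on the lower side. DNAJA1 was the 1 of these genes with tibolone arrays all above the controls.

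In CEE+MPA over CEE, which share the estrogen and differ by the progestin, 0 passed, where 0.0209% of all probe sets did, all lower. An unadjusted p under 0.05 was found for 9 members (7.69%, and 7.72% of all), and groups did not overlap for 2 higher and 1 lower (1.9% and 3.17% of all). The smallest p of all was that of the dimmer DNAJC7 probe set (0.47 ± 0.14, limma, adjusted p = 0.399), whose groups did not overlap. Among the genes' brightest probe sets, CCT8 (0.38 ± 0.16, adjusted p = 0.572), FKBP4 and BAG1 (0.36 ± 0.16, adjusted p = 0.625) had the smallest p on the higher side. BAG5 (-0.47 ± 0.16, adjusted p = 0.488), DNAJC6 (-0.41 ± 0.18) and FKBP9 had them on the lower side. In tibolone over CEE 0 passed, where 0.00696% of all probe sets did, 0.00348% higher and 0.00348% lower. An unadjusted p under 0.05 was found for 12 members (10.3%, and 11.9% of all), and groups did not overlap for 4 higher and 0 lower (2.83% and 2.59% of all). Among brightest probe sets, DNAJA4 (0.59 ± 0.20, adjusted p = 0.289), HSPA12B (0.63 ± 0.24) and HSPH1 (0.64 ± 0.25) were first on the higher side. On the lower side FKBP4 (-0.33 ± 0.15, adjusted p = 0.419), CCT8 (-0.32 ± 0.16) and DNAJA2 (-0.49 ± 0.24) were first.

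FKBP4 and CCT8 kept an order in these comparisons, without tests that passed. FKBP4 had 1283 ± 169 with tibolone, 2039.5 ± 105 with CEE+MPA, 1613 ± 229.9 with CEE and 1149 ± 211 in controls (SD, n = 4 each). CCT8 had 2268 ± 309 with tibolone, 3733 ± 626 with CEE+MPA, 2835 ± 271 with CEE and 2281 ± 313 in controls. For both, CEE+MPA was highest and CEE second, and tibolone and control were within their spread of each other. CEE did not pass against any neighbour in this order. Chaperonin probe sets did not all keep it: those of CCT2 gave differences of tibolone from CEE+MPA between -0.99 and 0.38, none past the threshold.

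Genes of linked pathways were measured for context. Of 16 genes of the endoplasmic reticulum stress response 12 were tested. ATF4, a transcription factor on this list among others, was the 1 that passed, as higher in CEE+MPA over control (0.58 ± 0.12, limma, adjusted p = 0.014) and lower in tibolone over CEE+MPA (-0.70 ± 0.12, adjusted p = 0.00794). Of 10 glucocorticoid and progestin targets 7 were tested, and ZBTB16 alone passed, as higher in tibolone over CEE+MPA (1.17 ± 0.34, adjusted p = 0.0499). Of 10 immediate early genes, which are known to respond to the handling of tissue, as heat shock genes do, 6 were tested and 0 passed in either of these comparisons. Their mean was 0.33 ± 0.48 with tibolone, -0.50 ± 0.32 with CEE+MPA, -0.24 ± 0.27 with CEE and 0.41 ± 0.92 in controls (SD, n = 4 each).

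The remaining 30 member probe sets did not pass the signal filter, and the 8 genes DNAJB7, DNAJB8, DNAJC22, FKBP5, HSPA4L, HSPB3, HSPB7 and HSPB9 had no other. With no filter, 0 of the 30 passed in any comparison by limma, and between 2 and 5 had an unadjusted p under 0.05. The share of all unfiltered probe sets is not given beside these counts. Several central chaperones, among them HSPA1A, HSPA2, HSPA5, HSPD1, HSPE1, HSPB1, DNAJC3 and CCT3, had no probe set with that single symbol and were not analysed here.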

How the data were processed

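RNA of mammary tissue was run on Affymetrix rhesus arrays, 1 per animal, per the labels. The deposited values were linear signal intensity per probe set, and the values show that the authors scaled each array to a common trimmed mean (250.01 to 250.02 after removing 2% at either end). GCOS and Affymetrix Expression Console appear in the submitters' processing notes. Their versions and the signal algorithm are not given in the sources used.

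The table held 52865 probe sets, of which 99 controls were dropped. The annotation table gave 1 symbol to 24969, several to 361 and none to 27535, and the cynomolgus RefSeq gene table held 74 of the 75 members. Rhesus probes may bind cynomolgus RNA unequally. A limma model of 4 group means over 16 arrays was fitted to log2(intensity + 16) of 28716 probe sets, with 6 comparisons, each adjusted by Benjamini and Hochberg at 0.05. Intervals are at 95%. The number of arrays limits the precision.

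The members and lists were chosen with earlier results of these data known. Named were, per comparison, up to 6 rises and 6 falls past the threshold, the 3 smallest p in a direction where fewer than 3 passed, a panel of chaperones, and the 5 widest ranges (DNAJC12, HSPB6, DNAJC25, FKBP11 and BAG3). Genes resembling FKBP5 were not sought because FKBP5 was not tested. Alternatives covered normalization, filter, offset, groups fitted, probe sets per gene, skeletal muscle, spike-in sets and single arrays. The spike-in sets by dap and thr together, used in the report, and the counts without DNAJC28 were chosen after seeing the data. On simulated data for CEE+MPA over control, 62 of 100 probe sets changed by 1 and 97 of 100 changed by 2 (log2) were recovered among 28716. No other probe sets were changed there, whereas 1819 passed in the real data, and the simulated noise held no shared array effects. These rates need not hold for the real data. Software was limma 3.58.1 in R 4.3.3, with figures from matplotlib 3.10.9 under Python 3.11.15.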

Additional observations from a re-analysis of the deposited data

Results flagged for a closer look

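Within groups of 4 arrays, 124 groups of 31 named genes were examined for a highest or lowest array far from the rest by Dixon's ratio at its 95% critical value, and 7 stood out. Chance flags about 1 in 20 groups, so 7 of 124 is near that rate. CEE+MPA replicate 4 was the array in 3 of them: CCT8 had 2795 there, against 4028 to 4062 on the other 3, CCT2 had 3724, against 5804 to 6272, and DNAJC12 had 169, against 71.1 to 73.8. CEE+MPA replicate 2 stood out for DNAJB14 at 492, against 419 to 427. Tibolone replicate 3 stood out for FKBP4 at 1032, against 1339 to 1402, and tibolone replicate 4 for HSPA12B at 425, against 537 to 563. CEE replicate 3 stood out for FKBP1A, a dim probe set, at 44.8, against 66.1 to 71.2.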

How the results depend on the processing

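No paired analysis was possible because the groups share no animals and replicate numbers only follow the order of deposit. Member calls in CEE+MPA over control (10, with DNAJC28) were 6 with no filter and 3 (all higher) without the 4 arrays of high skeletal muscle signal. They were 18 with the spike-in sets by dap and thr as a block. Within the low set by dap and thr and the low set by dap they were 0. By dap alone the high set held control replicate 2, CEE replicate 4 and CEE+MPA replicates 2 and 3, and the low set the other arrays. With a lone control array, the high set by dap is given no count. Leaving out single arrays gave 3 to 13. Calls in tibolone over CEE+MPA (8, with DNAJC28) were 4 with no filter, 0 with only the 2 groups compared and 4 with skeletal muscle as a covariate. They were 0 without the high skeletal muscle arrays and 3 with the dap and thr block. Within the low set by dap they were 3, and within the high set by dap and thr 2. Leaving out single arrays gave 0 to 19: 0 without tibolone replicate 2 or 3 or CEE+MPA replicate 3, 1 without CEE+MPA replicate 1, and 19 without tibolone replicate 4. CEE over control (0) gave 1 with the dap and thr block. The sets by dap and thr were chosen after seeing the data. The share of all probe sets that passed in each of these fits is not given here, and the cause of these shifts was not tested. Of 60 named results 18 passed, and none of the 18 changed direction. These 18 include both results of DNAJC28, which had to differ through the filter and count as no test. Values that changed sign, all in CEE+MPA over control and none past a threshold, were, within the low sets by dap and by dap and thr, STIP1 (-0.14, -0.16), AHSA1 (-0.082, -0.13), CHORDC1 (-0.079, -0.085), HSPB8 (-0.049, -0.16) and DNAJA1 (-0.27, -0.26), and HSPA8 with quantile normalization (-0.023), DNAJA1 with the dap block (-0.022) and DNAJB1 without the high skeletal muscle arrays (0.077). Leaving out single arrays gave ranges across 0 for AHSA1 (-0.017 to 0.14), HSPB8 (-0.041 to 0.10), DNAJA1 (-0.13 to 0.19) and DNAJB1 (-0.27 to 0.014). With 4 animals a group and dim probe sets for PTGES3, DNAJC6, DNAJC28 and FKBP5, small differences of these genes were not detectable.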
